A study of Saccharomyces cerevisiae with 16 samples.

Results

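The genes described here serve glucose uptake and glucose sensing in the budding yeast Saccharomyces cerevisiae: the hexose transporter genes HXT1 to HXT8 and the glucose sensor genes SNF3 and RGT2. They were taken by gene symbol and make up 10 of 6321 array features, 5611 of which have a gene name. HXT2 was named in the choice because its log2 ratio rose in the wild type and in the strain without YAP1. The genes were thus chosen by their log2 ratios in the wild type and in the YAP1 deletion, so their levels in these 2 strains are given as a description, and no p-value from them is read as support.

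The study followed the yeast transcriptome after addition of benomyl, an antimitotic fungicide that disrupts microtubules. Each array compared total RNA from a benomyl-treated strain against RNA from that strain with no drug. The strains were the wild type (WT), a YAP1 deletion (DeltaYAP1) and a PDR1 deletion (DeltaPDR1), each sampled 30 s and then 2, 4, 10 and 20 min after the drug, and WT also after 40 min, which gave 16 arrays, 1 for each strain and time. Yap1 is a transcription factor of the oxidative stress response, and Pdr1 is a transcription factor of drug resistance. Each value is an average over a culture, so fewer cells with a transcript and less of it per cell cannot be told apart. Strain background, growth medium, glucose concentration and benomyl dose are not given in the sources used here.

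Hexose transporters of the HXT family carry glucose and other hexoses across the plasma membrane by facilitated diffusion, and yeast adjusts which of them it makes to the glucose outside. Snf3 and Rgt2 resemble transporters but act as sensors: with glucose bound they set off the destruction of Mth1 and Std1, which frees HXT promoters from the repressor Rgt1. A second circuit, the kinase Snf1 and the repressor Mig1, shuts off the genes for high-affinity uptake and for the use of other carbon sources when glucose is plentiful.

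The values are log2 ratios of benomyl over no drug, so 0 means no difference from the untreated strain and 1 means a 2-fold higher level. Neither the base nor the direction of the logarithm is stated: base 2 is assumed, and drug over no drug follows how the labels number the channels. Arrays held 3450 to 6128 values each, and their standard deviation (SD) lay between 0.174 and 0.594. Where a gene had several probes, values of a pair on one array differed by a median of 0.178. They differed by less than 0.518 in 90% of 213 such comparisons, which repeat the probes of 17 genes over the arrays. FLR1, a drug exporter gene under Yap1, checked the DeltaYAP1 label: its mean over 2 to 20 min was 3.65 ± 0.47 (SE, n = 4) in WT, -0.02 ± 0.47 in DeltaYAP1 and 3.70 ± 0.47 in DeltaPDR1. It cannot tell DeltaPDR1 from WT. PDR5, a target gene of Pdr1, had means of 1.06 in WT, 0.80 in DeltaYAP1 and 0.19 in DeltaPDR1. Its difference between DeltaPDR1 and WT, -0.86, did not pass the test used below. The deleted gene is missing from both channels of its own strain, so its own probe checks nothing. On 5 arrays, DeltaYAP1 from 30 s to 4 min (3 arrays), WT at 4 min and DeltaPDR1 at 2 min, the ratios followed the order of the probes: they correlated with themselves at a distance of 96 probes by 0.19 to 0.41, against 0.01 to 0.05 on the other 11. The tests below and the high points at 4 min are also given with a trend along the probes removed from every array. The single values are as deposited.

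Every gene of the set has 1 probe. HXT2, HXT5, HXT6, HXT7 and RGT2 have a value on all 16 arrays, and HXT8 and SNF3 lack only DeltaPDR1 at 2 min. HXT1, HXT3 and HXT4 have values on all 11 WT and DeltaYAP1 arrays and on 0 of 5 DeltaPDR1 arrays. Of 4516 features with complete WT and DeltaYAP1 values, 352 (7.79%) likewise have none in DeltaPDR1, and the reason is not given in the sources used here. In the RefSeq annotation of assembly R64, HXT7 and HXT6 are adjacent on chromosome IV with HXT3 1 gene further. On chromosome VIII HXT1 and HXT5 are adjacent, and AHT1 lies between HXT4 and HXT1. HXT2 is on XIII, HXT8 on X, and SNF3 and RGT2 on IV.

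**Figure D1:**
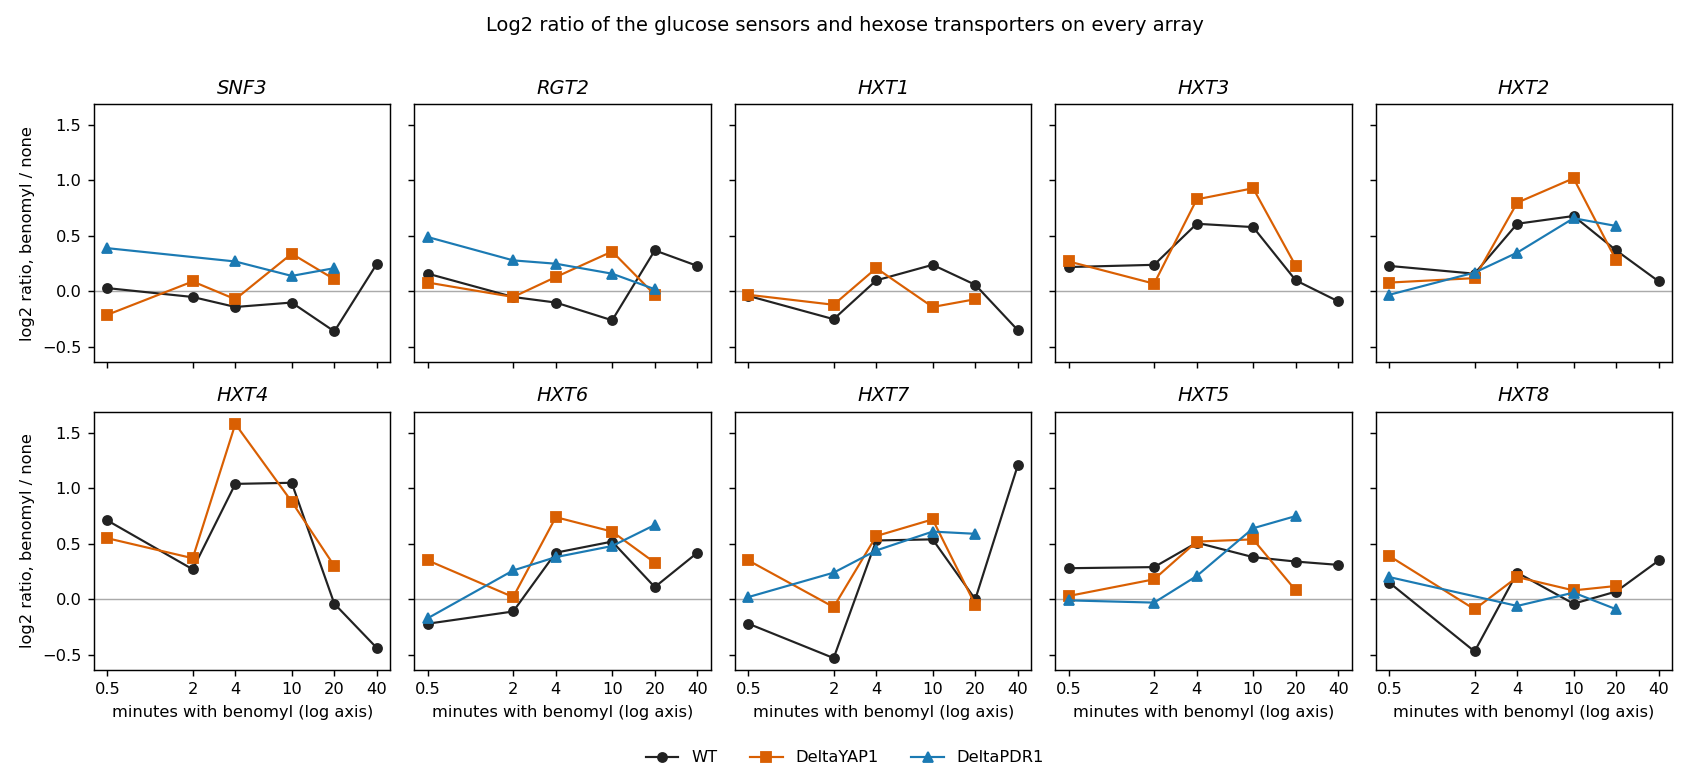
Log2 ratio (benomyl over no drug, vertical axis) of each gene against time on a log axis in minutes, with 1 point per array, for WT (circles), DeltaYAP1 (squares) and DeltaPDR1 (triangles). HXT2, HXT3, HXT4, HXT5, HXT6 and HXT7 are high at 4 and 10 min in WT and DeltaYAP1. The highest point is HXT4 in DeltaYAP1 at 4 min (1.58), while the sensors stay between -0.36 and 0.49.

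The sensor genes stayed between -0.36 and 0.37 in WT and DeltaYAP1, and were highest at 30 s in DeltaPDR1. SNF3 encodes the sensor of low glucose, and its log2 ratios in WT were 0.03, -0.05, -0.14, -0.10, -0.36 and 0.25 from 30 s to 40 min. In DeltaYAP1 they were -0.21, 0.09, -0.07, 0.34 and 0.11 from 30 s to 20 min. The 4 DeltaPDR1 values, with 2 min missing, were 0.39, 0.27, 0.14 and 0.21 in order of time, all 4 above 0. The 30 s value lay at the 96.8th percentile of its array. The WT values from 2 to 20 min were all below 0.

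RGT2 encodes the sensor of high glucose. Its WT ratios were 0.16, -0.05, -0.10, -0.26, 0.37 and 0.23, and its DeltaYAP1 ratios 0.08, -0.05, 0.13, 0.36 and -0.03. In DeltaPDR1 they were 0.49, 0.28, 0.25, 0.16 and 0.02, lower at each later time, with the 30 s value at the 98.7th percentile of its array. Over 15 arrays SNF3 and RGT2 correlated by 0.385 (Spearman 0.486), and by 0.645 without the 2 arrays farthest from the median of SNF3.

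HXT1 and HXT3 encode low-affinity transporters, which serve cells in plentiful glucose. HXT1 gave -0.04, -0.25, 0.10, 0.24, 0.06 and -0.35 in WT and -0.03, -0.12, 0.21, -0.14 and -0.07 in DeltaYAP1. No HXT1 value was above 0.24 or below -0.35, and its mean over 2 to 20 min was 0.04 ± 0.21 (SD, n = 4 times) in WT and -0.03 ± 0.16 in DeltaYAP1. The SD over times holds both change with time and error, since no array was repeated.

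HXT3 gave 0.22, 0.24, 0.61, 0.58, 0.10 and -0.09 in WT and 0.27, 0.07, 0.83, 0.93 and 0.23 in DeltaYAP1. The 4 and 10 min values were the highest of each strain and lay at the 98.3rd and 96.5th percentiles of the arrays in WT and at the 99.7th percentile of both in DeltaYAP1. The low-affinity pair thus differed in these arrays: at 4 and 10 min HXT3 was above HXT1 on 4 of 4 arrays.

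HXT4, a transporter gene of intermediate to high affinity, held the highest value of the set. Its WT ratios were 0.71, 0.27, 1.04, 1.05, -0.04 and -0.44, and its DeltaYAP1 ratios 0.55, 0.37, 1.58, 0.88 and 0.30. The value of 1.58 in DeltaYAP1 at 4 min was 6.79 SDs of that array above 0. HXT4 was already high at 30 s, at the 99.9th percentile in WT and the 99.1st in DeltaYAP1, where the probes within 10 numbers of it had medians of 0.10 and 0.26. With the 30 s array subtracted, the mean over 2 to 20 min was -0.13 in WT and 0.24 in DeltaYAP1, in place of 0.58 ± 0.55 (SD, n = 4) and 0.78 ± 0.59.

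HXT2, another gene of high-affinity uptake, is induced by low glucose. It gave 0.23, 0.16, 0.61, 0.68, 0.37 and 0.09 in WT, 0.08, 0.12, 0.80, 1.02 and 0.28 in DeltaYAP1 and -0.03, 0.17, 0.35, 0.66 and 0.59 in DeltaPDR1. All 12 values from 2 to 20 min were above 0, and the highest, 1.02, lay at the 99.8th percentile of its array. The mean over 2 to 20 min was 0.46 ± 0.09 (SE of the fit, n = 4) in WT and 0.56 ± 0.09 in DeltaYAP1, or 0.23 and 0.47 with the 30 s array subtracted. HXT2 was past the threshold in both (adjusted p = 0.0143 and 0.0393). These are the values that chose it, so these p-values are no support. HXT3 and HXT4, which have no DeltaPDR1 value, were not in this fit. Over all 4324 features tested, 2.61% were called higher and 1.55% lower in WT, and 0.116% higher and 0% lower in DeltaYAP1.

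HXT6 and HXT7 encode high-affinity transporters that are nearly identical in sequence, and whether the probes tell the 2 transcripts apart is not stated. HXT6 gave -0.22, -0.11, 0.42, 0.52, 0.11 and 0.42 in WT, 0.35, 0.02, 0.74, 0.61 and 0.33 in DeltaYAP1 and -0.17, 0.26, 0.38, 0.48 and 0.67 in DeltaPDR1. HXT7 gave -0.22, -0.53, 0.53, 0.54, -0.00 and 1.21 in WT, 0.35, -0.07, 0.57, 0.72 and -0.05 in DeltaYAP1 and 0.02, 0.24, 0.44, 0.61 and 0.59 in DeltaPDR1. The pair tracked each other with r = 0.792 (Spearman 0.865) over 16 arrays, and the median absolute difference of 0.104 was below the 0.178 seen between probes of one gene.

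The exception was WT at 40 min, where HXT7 stood at 1.21 and HXT6 at 0.42, a difference of 0.781. HXT7 was also lower than HXT6 by 0.418 in WT at 2 min and by 0.383 in DeltaYAP1 at 20 min. The SD of HXT7 minus HXT6 was 0.266 over all arrays and 0.174 without WT at 40 min. Differences of 0.518 or more were seen in 1 of 10 comparisons between probes of one gene on one array. Of these 3 only the 40 min difference exceeds that value. The value pools all arrays, however, and WT at 40 min had the widest spread of them (SD 0.594). Whether HXT6 and HXT7 differed there was not tested.

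**Figure D2:**
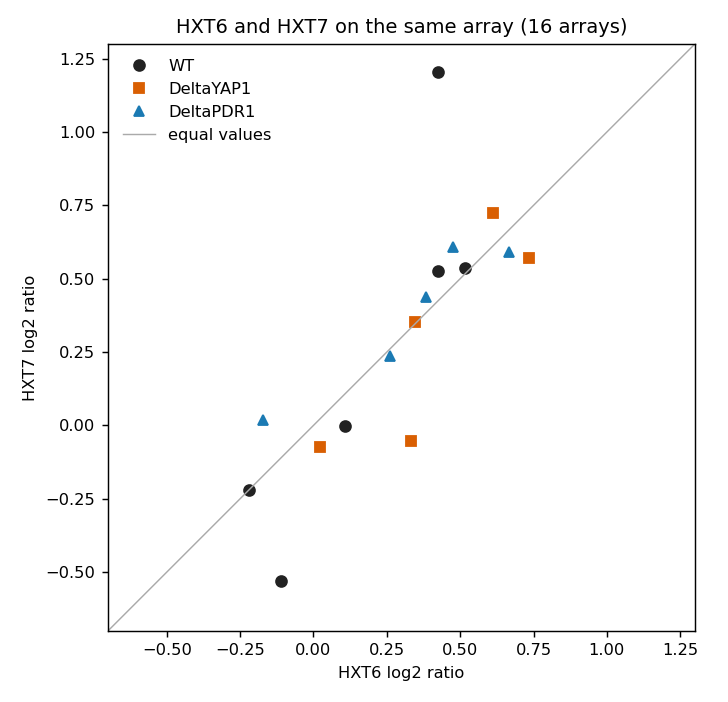
Log2 ratio of HXT7 (vertical axis) against that of HXT6 (horizontal axis), with 1 point for each of the 16 arrays and a line of equal values. Most points lie near the line, and WT at 40 min stands apart at 0.42 for HXT6 and 1.21 for HXT7.

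HXT5 encodes a transporter made in slow growth and under stress. It gave 0.28, 0.29, 0.51, 0.38, 0.34 and 0.31 in WT, 0.03, 0.18, 0.52, 0.54 and 0.08 in DeltaYAP1 and -0.01, -0.03, 0.21, 0.64 and 0.75 in DeltaPDR1. Its WT values were the most even of the set, with an SD of 0.09 over 2 to 20 min, and its DeltaPDR1 values were the most spread, with the last at the 98.4th percentile.

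HXT8, a transporter gene of low expression, gave 0.15, -0.47, 0.24, -0.04, 0.07 and 0.35 in WT and 0.39, -0.09, 0.20, 0.08 and 0.12 in DeltaYAP1. In DeltaPDR1, with 2 min missing, it gave 0.20, -0.06, 0.06 and -0.09. HXT8 was above 0 on 4 of 5 DeltaYAP1 arrays, and its values ran from -0.47 to 0.39 over all arrays.

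In WT and DeltaYAP1 several transporter genes had their high point at 4 and 10 min. In WT, the 4 and the 10 min value both lay above every other array of the strain for 5 of 10 genes (HXT1, HXT2, HXT3, HXT4 and HXT5), against 4.42% of the features with all values. In DeltaYAP1 this held for 7 of 10 (RGT2, HXT2, HXT3, HXT4, HXT5, HXT6 and HXT7), against 5.62%. In DeltaPDR1 it held for 0 of the 5 genes with all values, against 4.91%. The pattern was seen in arrays used by the choice of HXT2, and these counts are a description.

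Both 4 min arrays are among those that followed probe order, and the probes beside the transporter genes were above 0 there too, while those beside SNF3 were below 0. The median of the probes within 10 numbers of a gene ran from -0.24 to 0.29 over the 10 genes on the WT array and from -0.13 to 0.28 on the DeltaYAP1 array. At 10 min it ran from -0.19 to 0.07 in WT and from -0.06 to 0.06 in DeltaYAP1. HXT2 at 4 min was 0.41 above its neighbours in WT and 0.60 above them in DeltaYAP1, and at 10 min 0.87 and 1.03 above them. With the trend along the probes removed, 2 genes of 10 (HXT3 and HXT4) kept the WT high point, where 5.52% of features had it, and 7 kept it in DeltaYAP1, where 11.2% had it.

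**Figure D3:**
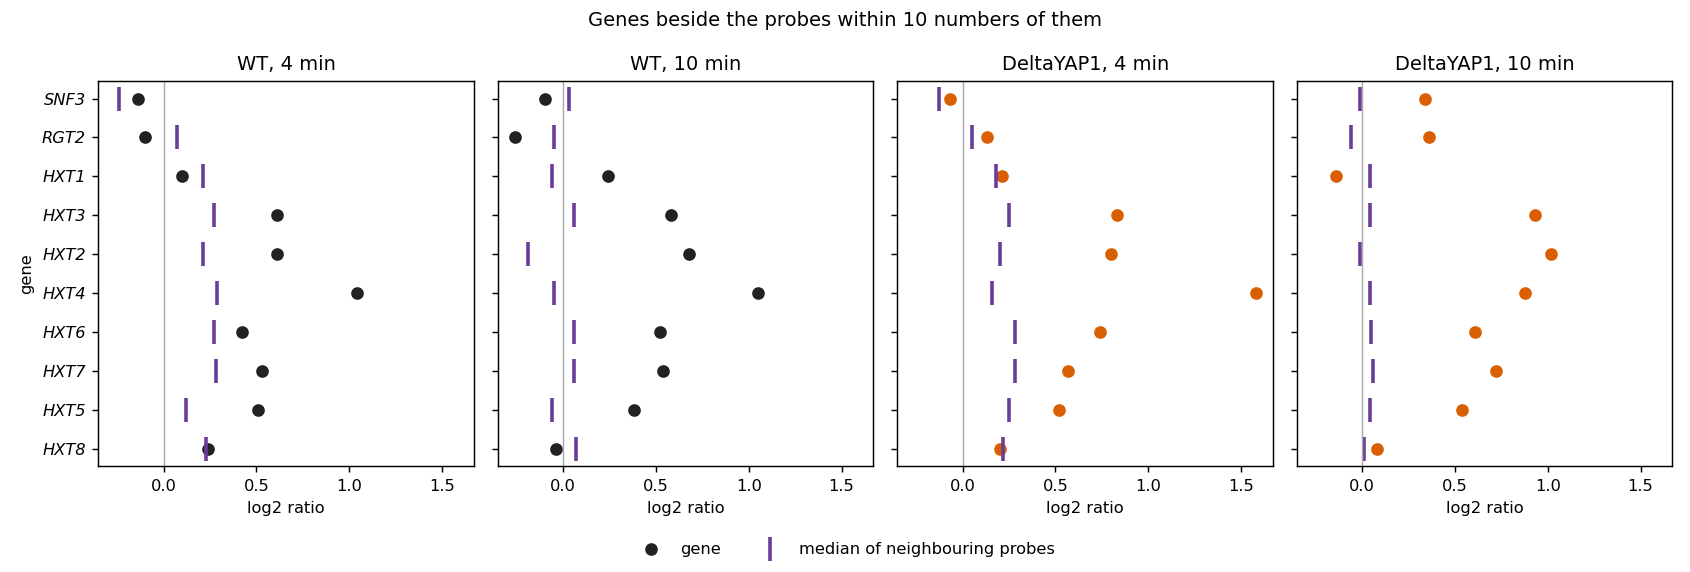
Log2 ratio (horizontal axis) of each gene (dots) and the median of the probes within 10 probe numbers of it (vertical bars), in WT and DeltaYAP1 at 4 and 10 min. At 4 min the medians beside the transporter genes lie above 0, up to 0.29. The dots of HXT2, HXT3, HXT4, HXT5, HXT6 and HXT7 lie further right. At 10 min the medians lie near 0.

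Values after 10 min differed in several transporter genes by strain, as a description. The step from 10 to 20 min was -0.31 for HXT2 in WT, -0.74 in DeltaYAP1 and -0.08 in DeltaPDR1. In the same order of strains it was -0.41, -0.28 and 0.19 for HXT6 and -0.54, -0.78 and -0.02 for HXT7. For HXT5 it was -0.04, -0.46 and 0.11. All 8 of these steps were negative in WT and DeltaYAP1, and in DeltaPDR1 the 4 steps lay between -0.08 and 0.19. Of the other genes measured in DeltaPDR1, the sensor gene SNF3 shared this pattern, with steps of -0.27, -0.23 and 0.07. RGT2 and HXT8 did not: the steps were 0.64, -0.39 and -0.14 for RGT2 and 0.12, 0.04 and -0.15 for HXT8. In WT and DeltaYAP1 the steps were -0.48 and -0.70 for HXT3, -1.09 and -0.58 for HXT4 and -0.19 and 0.07 for HXT1.

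For scale, the SD of this step over all features was 0.39 in WT, 0.31 in DeltaYAP1 and 0.28 in DeltaPDR1, with medians of 0.01, 0.04 and 0.00. The steps of HXT2, HXT5, HXT6 and HXT7 lay at the 16.5th, 44.4th, 11.2nd and 6.33rd percentiles in WT, at the 1.57th, 7.19th, 16th and 1.35th in DeltaYAP1 and at the 36.4th, 65.9th, 77.6th and 46.3rd in DeltaPDR1. Most of them are thus within the usual range of all features. Each step rests on 2 single arrays, so the difference between strains in this step was not tested.

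HXT2 was singled out by its WT and DeltaYAP1 values, not by those of DeltaPDR1, so the response of DeltaPDR1 was tested. The test is not fully independent of the choice. The genes were chosen with earlier results of these data known, and the SE comes from a fit shared with the WT and DeltaYAP1 arrays. HXT2, HXT6 and HXT7 rose with benomyl in this strain, by a mean log2 ratio over 2 to 20 min of 0.44 ± 0.09 (SE, n = 4; adjusted p = 0.0161), 0.45 ± 0.09 (adjusted p = 0.0155) and 0.47 ± 0.11 (adjusted p = 0.0258). All 3 were above 0 on 4 of 4 arrays, and these means correspond to 1.36-fold, 1.36-fold and 1.38-fold. HXT5 had 0.39 ± 0.11 and was above 0 on 3 of 4 arrays (adjusted p = 0.0534).

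The other 3 genes tested were nearer 0. RGT2 had 0.18 ± 0.11 (adjusted p = 0.336). SNF3 had 0.22 ± 0.10 (adjusted p = 0.203) and HXT8 -0.12 ± 0.10 (adjusted p = 0.453), each from 3 arrays, with the missing 2 min array filled by the time effect that the 3 strains share. The plain mean of the HXT8 values was -0.03. In all, 3 of 7 genes tested were called higher and 0 lower, with a median of 0.39, while 2.8% of 4324 features were called higher and 2.71% lower, with a median of -0.01. HXT6 and HXT7 may read each other's transcript and are not independent counts.

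At 10 and 20 min alone, HXT5 rose most in DeltaPDR1, by 0.70 ± 0.12 (SE, n = 2; limma adjusted p = 0.00454). HXT2 rose by 0.62 ± 0.13 (limma adjusted p = 0.0214) and HXT6 by 0.57 ± 0.13 (limma adjusted p = 0.0414), while HXT7 had 0.60 ± 0.16 (limma adjusted p = 0.0696). This is 3 of 7 higher and 0 lower, against 2.08% of 4323 features higher and 1.62% lower.

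These calls are close to the threshold. Over 2 to 20 min each of the 3 was lost without the DeltaPDR1 array at 2, 10 or 20 min (adjusted p 0.0508 to 0.144), with estimates of 0.33 to 0.56, and all 3 were lost with the DeltaPDR1 arrays fitted alone (adjusted p 0.0551 to 0.0640), without the time block and without the 4 fitted arrays that followed probe order. At 10 and 20 min the calls of HXT2 and HXT6 were lost without DeltaPDR1 at 10 min (adjusted p = 0.0612 and 0.0554) or at 20 min (adjusted p = 0.538 and 0.614), that of HXT5 without 20 min (adjusted p = 0.298), and HXT6 kept its call in 4 of 12 fits that left out 1 array.

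With the trend along the probes removed, the DeltaPDR1 means over 2 to 20 min were 0.49 for HXT2 (adjusted p = 0.00494), 0.29 for HXT6 (adjusted p = 0.0409) and 0.32 for HXT7 (adjusted p = 0.0660), so that HXT7 lost its call. For 10 and 20 min alone, HXT6 went from 0.57 to 0.35 and lost its call (adjusted p = 0.106), while HXT2 had 0.71 (adjusted p = 0.0053) and HXT5 0.60 (adjusted p = 0.00911). The DeltaPDR1 arrays at 10 and 20 min did not follow probe order at a distance of 96 probes (correlations of 0.03 and 0.02). HXT6 and HXT7 have adjacent probes, which the removed curve includes, so it can take up part of their own signal. The probes within 10 numbers of them, without those of the set, were above 0 there too. Their medians at 10 and 20 min were 0.13 and 0.27 for HXT6 and 0.12 and 0.17 for HXT7. HXT6 lay 0.35 and 0.40 above these medians, and HXT7 0.48 and 0.42. Why the estimates fell was not tested. With arrays scaled to one spread, HXT2 and HXT7 lost their calls over 2 to 20 min (adjusted p = 0.0509 and 0.0760), and HXT2 and HXT6 theirs at 10 and 20 min (adjusted p = 0.109 and 0.119).

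**Figure D4:**
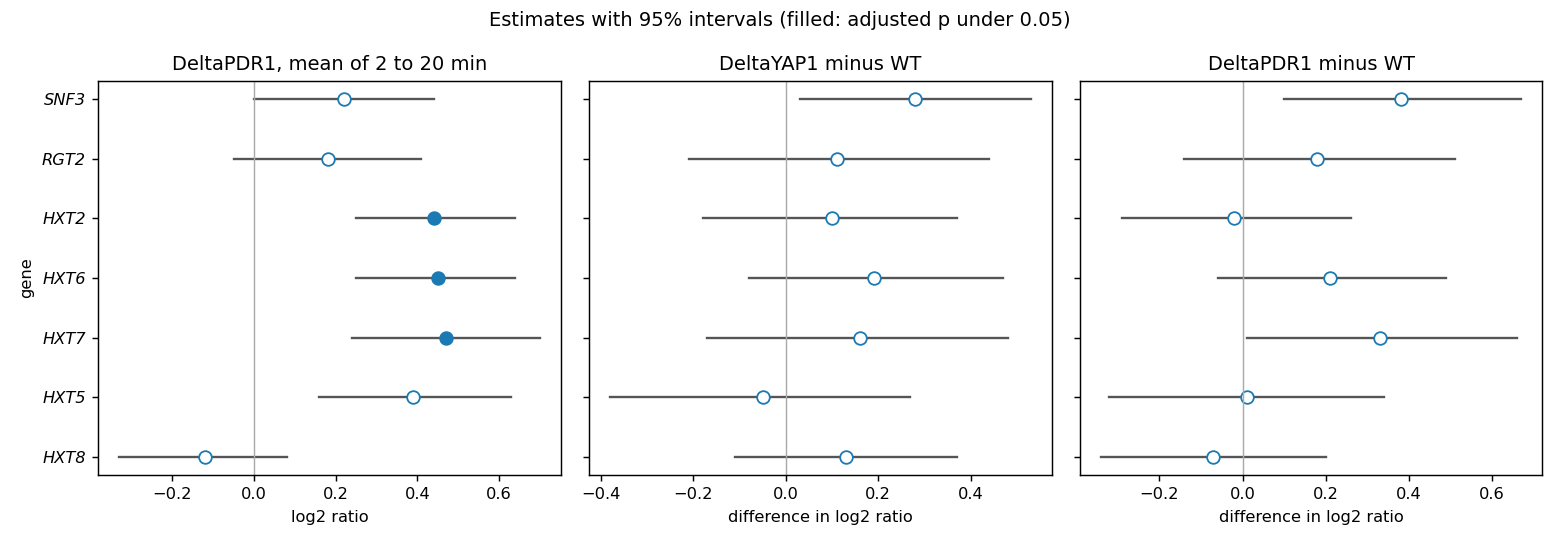
Mean log2 ratio over 2 to 20 min in DeltaPDR1 (left panel) and differences in that mean between strains (middle and right panels) for the 7 genes tested, with 95% intervals from the fit. Filled points passed an adjusted p of 0.05: HXT2, HXT6 and HXT7 in DeltaPDR1 and no gene in the differences.

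The difference between DeltaYAP1 and WT was not the contrast that chose HXT2, but it comes from the same arrays and is read here only for its size and interval. The counts and p-values beside it are a description. For DeltaYAP1 minus WT over 2 to 20 min, 0 of 7 genes passed by limma and 1 had an unadjusted p under 0.05, against 0% of features higher and 0.139% lower. HXT2 differed by 0.10 ± 0.13 (SE), with a 95% interval of -0.18 to 0.37, so a difference of up to 0.37 in this direction is within the error. SNF3 had the largest estimate, 0.28 with an interval of 0.03 to 0.53 (adjusted p = 0.496), and HXT5 the lowest, -0.05 with an interval of -0.38 to 0.27. At 10 and 20 min 0 of 7 passed and 1 had an unadjusted p under 0.05, while 0.208% of features were called higher and 1.27% lower. With the trend along the probes removed, the differences over 2 to 20 min were 0.11 for HXT2, 0.27 for SNF3 and -0.01 for HXT5.

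HXT1, HXT3 and HXT4 could be compared between WT and DeltaYAP1 only in a fit of these 8 arrays, which tested 5222 features and called 0 of them. The difference was -0.07 for HXT1 (95% interval -0.33 to 0.19), 0.13 for HXT3 (-0.12 to 0.38) and 0.20 for HXT4 (-0.09 to 0.50), with adjusted p of 0.871, 0.675 and 0.588. The intervals take in differences of 0.38 for HXT3 and 0.50 for HXT4, and with the trend along the probes removed the differences were -0.02, 0.16 and 0.24.

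The comparison of DeltaPDR1 with WT made no call in the set. Over 2 to 20 min 0 of 7 genes passed by limma and 2 had an unadjusted p under 0.05. Among all features 0% were called higher and 0% lower, although 617 of 4324 had an unadjusted p under 0.05. The largest estimates were 0.38 ± 0.13 for SNF3 (95% interval 0.10 to 0.67, adjusted p = 0.235) and 0.33 ± 0.15 for HXT7 (0.01 to 0.66, adjusted p = 0.340). HXT2 differed by -0.02 (-0.29 to 0.26) and HXT5 by 0.01 (-0.32 to 0.34). At 10 and 20 min 0 of 7 passed and 1 had an unadjusted p under 0.05, against 0.116% of features higher and 0.162% lower, and HXT5 differed by 0.33 (-0.03 to 0.69). With the trend along the probes removed, the differences over 2 to 20 min were 0.38 for SNF3, 0.28 for HXT7, 0.02 for HXT2 and 0.01 for HXT5. The differences from WT share the WT arrays.

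The last WT array, at 40 min, had no counterpart in the deletion strains and is a single measurement. On it HXT7 was at 1.21, the 96.9th percentile, and its near copy HXT6 at 0.42. HXT8 was at 0.35, HXT5 at 0.31 and HXT2 at 0.09, while HXT3 was at -0.09, HXT1 at -0.35 and HXT4 at -0.44. HXT1, HXT2, HXT3 and HXT4 each had their lowest WT value there, and HXT7 its highest. The step from 20 to 40 min was 1.21 for HXT7, the 99.2nd percentile of all features, and -0.40 for HXT4.

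Other genes of glucose use were also high on that array. HXK1, a hexokinase gene that glucose represses, was at 3.30 after 0.11, -0.17, -0.37, 0.45 and 0.39 at the 5 earlier times. GLK1, the glucokinase gene, was at 1.15 and EMI2, a gene of the same family, at 0.69, while HXK2, the main hexokinase gene in glucose, was at 0.20. Unlike HXK1, GLK1 and EMI2 were already at 0.81 and 0.50 at 20 min. Of the 4 genes of hexose phosphorylation, 2 were at 1 or more (HXK1 and GLK1), and of the 18 glucose-repressed genes with a value, 2 were (CYB2 at 1.44 and ALD4 at 4.27). These 2 had also been high before: CYB2 was at 0.74 at 20 min, and ALD4 at 2.65 and 4.08 at 10 and 20 min. Over the whole array 4.09% of features were at 1 or more. The median of the glucose-repressed genes was 0.16, and 1 of them, CYC1, was at -1.23, so the list did not stand high as a whole. Over 2 to 20 min, 2 of the 4 phosphorylation genes (GLK1 and EMI2) were tested and 0 passed by limma in any strain or difference, with 0 or 1 unadjusted p under 0.05. No more than 2.8% of all features were called in either direction, so a count of 0 is near that share.

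**Figure D5:**
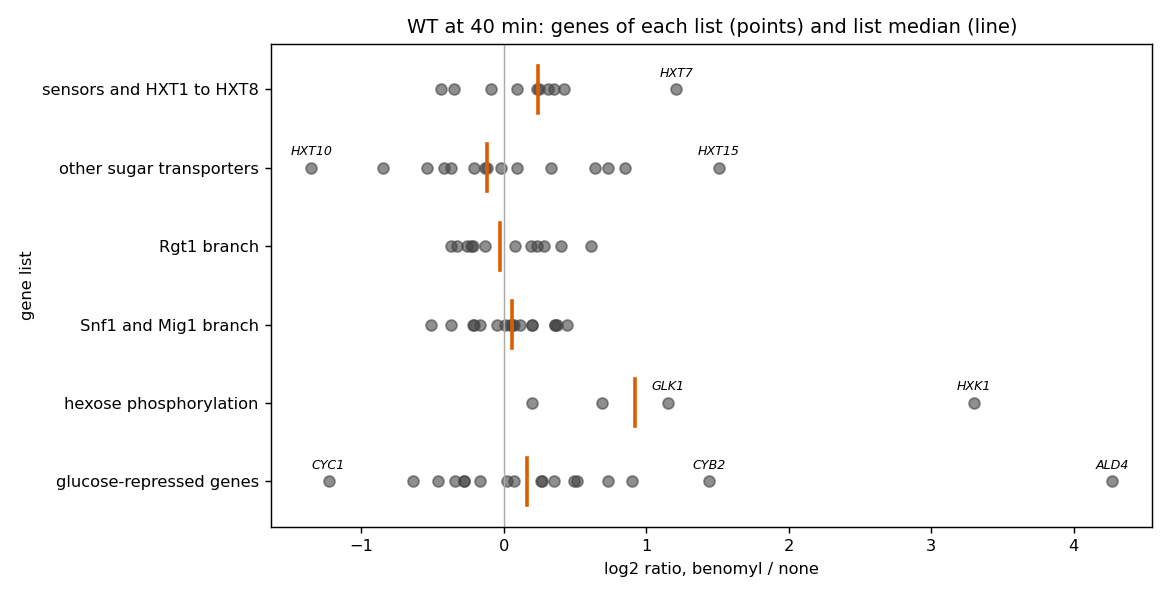
Log2 ratio (horizontal axis) on the WT array at 40 min of the genes in 6 lists (rows), with 1 point per gene, a line at the list median and names at 1 or more and -1 or less. HXT7 is the only gene of the sensors and HXT1 to HXT8 at 1 or more, and HXK1 (3.30) and ALD4 (4.27) lie furthest right.

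Among the other sugar transporter genes, 6 of 17 were tested and GAL2 rose in WT. GAL2 encodes the galactose permease, a close relative of the HXT proteins. Its WT ratios were -0.02, 0.04, 0.40, 0.46, 0.78 and 0.73, with a mean over 2 to 20 min of 0.42 ± 0.08 (SE, n = 4; limma adjusted p = 0.00989). In DeltaYAP1 it gave 0.10, -0.12, 0.12, 0.23 and 0.20 and in DeltaPDR1 0.04, -0.22, 0.19, 0.23 and 0.07. The differences from WT, -0.31 for DeltaYAP1 (adjusted p = 0.415) and -0.35 for DeltaPDR1 (adjusted p = 0.203), did not pass. No gene of this list passed in DeltaPDR1 (0 of 6, median -0.03, 1 with an unadjusted p under 0.05) or in either difference. Over all features 2.61% were called higher in WT, and in DeltaPDR1 2.8% higher and 2.71% lower. In the differences no share was above 0.139%, so these counts of 0 are near the shares.

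HXT9, a transporter gene known as a target of Pdr1, had only 2 DeltaPDR1 values, 0.17 at 2 min and 0.23 at 10 min, and was not tested. In WT it gave 0.04, 0.00, 0.45, 0.07, 0.46 and 0.64. HXT15 had 3 values in all, of which WT at 40 min was 1.51. On that array HXT10 was at -1.35, and the 15 other sugar transporter genes with a value had a median of -0.12.

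The circuits that control the transporters showed no call by limma, but few features were called at all. Over 2 to 20 min 2.61% were called higher and 1.55% lower in WT, 0.116% and 0% in DeltaYAP1 and 2.8% and 2.71% in DeltaPDR1. In the differences from WT the shares were 0% and 0.139% for DeltaYAP1 and 0% and 0% for DeltaPDR1. A count of 0 in either branch is near these shares. Of the Rgt1 branch (MTH1, STD1, RGT1 and their partners), 12 of 13 genes were tested and 0 passed in WT, DeltaYAP1, DeltaPDR1 or the differences over 2 to 20 min, with medians between -0.08 and 0.10 and between 0 and 2 unadjusted p under 0.05. RGT1, which encodes the repressor of HXT genes, gave -0.04, 0.02, -0.16, -0.24, 0.07 and 0.08 in WT. STD1 and MTH1 encode the co-repressors that the sensors act on. STD1 gave 0.37 at 4 min and -0.49 at 20 min in WT, and MTH1 gave 0.13 and -0.32.

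In the Snf1 and Mig1 branch, 14 of 17 genes were tested and 0 passed in the same comparisons, with medians between -0.11 and 0.09 and between 1 and 2 unadjusted p under 0.05. MIG1, the repressor gene, stayed between -0.30 and 0.20 on the WT arrays. MIG2, a related repressor gene that glucose induces through the sensors, had no DeltaPDR1 value and was not tested. It was above 0 on all 11 arrays where it was measured, with 0.41, 0.85, 0.63, 0.32, 0.44 and 0.44 in WT. In DeltaYAP1 it gave 0.21, 0.83, 0.38, 0.60 and 0.85. Unlike HXT3 and HXT4, MIG2 was at its WT maximum at 2 min.

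Of the glucose-repressed genes, 13 of 21 were tested. In WT 2 rose, CYB2 by 0.46 ± 0.09 (limma adjusted p = 0.0177) and ALD4 by 1.78 ± 0.36 (limma adjusted p = 0.0168), and in DeltaPDR1 ALD4 rose by 1.84 ± 0.36 (limma adjusted p = 0.0142). CYB2 encodes a lactate dehydrogenase and ALD4 an aldehyde dehydrogenase, both of mitochondria. ALD4 was lower in DeltaYAP1 than in WT at 10 and 20 min by -2.42 ± 0.51 (limma adjusted p = 0.0455). SUC2, the invertase gene and a usual reporter of glucose repression, had 0.35 ± 0.10 in WT (limma adjusted p = 0.0872). The median of the list was 0.02 in WT and 0.03 in DeltaPDR1, and over all features 2.61% and 2.8% were called higher.

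Across arrays the transporter genes resembled each other to very different degrees. The 28 pairs of transporter genes had a median correlation of 0.484, from -0.188 for HXT5 with HXT8 to 0.927 for HXT2 with HXT3, and 17 of them exceeded the 0.385 of the sensor pair. The value for HXT2 with HXT3 comes from 11 arrays (Spearman 0.718, and 0.818 without the 2 arrays farthest from the median). HXT2 correlated with HXT5 by 0.783 and with HXT6 by 0.733 over 16 arrays. HXT3 correlated with HXT4 by 0.866 over 11 arrays. These are descriptions: the arrays are time points of 3 strains, and probes of one array share its bias.

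Among 4239 features measured on at least 14 arrays, the profiles most like HXT2 were those of OAC1 (Pearson r = 0.869), STB2 (0.787) and YOR1 (0.783). For HXT5 they were BDF2 (0.820), CSM4 (0.785) and HXT2 (0.783). HXT7 was among the 3 most alike to HXT6 (0.792) and HXT6 among those of HXT7, beside MIC12 (0.846) for HXT6 and GRH1 (0.840) for HXT7. The sensors had no transporter gene among theirs: SNF3 was most like MGP12 (0.907) and RGT2 most like an unnamed probe (0.780) and FMC1 (0.748).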

How the data were processed

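Per the labels, 16 two-channel arrays compared each strain with benomyl (channel 1) and without it (channel 2). The authors deposited 1 log ratio per probe and array, taken here as log2. The base is not stated, and natural logarithms would make folds larger and keep signs and adjusted p. The ratio was read as drug over no drug from the order of the channels. Dyes, background correction and normalisation are not given in the sources used here. Array means lay between -0.0012 and 0.00047, so values are relative to each array's average. A dye bias that stays the same over time looks like a response in these values.

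The 6338 probes were named through the platform table and RefSeq (assembly R64), with 1 symbol for 5628, several for 0 and 5 of the named not found in RefSeq. Probes of 17 genes were averaged, which gave 6321 features.

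A linear model with strain and time block was fitted with limma 3.58.1 in R 4.3.3 to the 12 arrays at 2, 4, 10 and 20 min, for features with at most 1 missing value per strain. A second model on the same arrays had a mean per strain and phase (2 and 4 min, 10 and 20 min) and times within a phase as blocks. Tests were two-sided, with Benjamini-Hochberg adjustment over all features tested and a threshold of 0.05. There are no repeated arrays, so times served as repeats and p-values measure the spread of these arrays around shared time effects. Replicate numbers 2 to 5 stand for these times, and the time block pairs the strains by design. The number of arrays limits the precision. The trend along probe number was a lowess curve over 31 probes, which included the probes of the genes themselves.

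The named genes are the 10 members and 6 lists (other sugar transporters, Rgt1 branch, Snf1 and Mig1 branch, hexose phosphorylation, glucose-repressed genes, and the check genes FLR1, ATR1 and PDR5), with the 3 most alike features of each member. The members and lists were chosen with earlier results of these data known. Alternatives changed the centring, scale, arrays, missing values, shrinkage, probe trend and time block, or left out arrays. Of the check genes, ATR1 and PDR5 stood at 1.84 and -0.47 in WT at 40 min.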

Additional observations from a re-analysis of the deposited data

How the results depend on the processing

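Differences between strains gave 0 called genes of the set under all alternatives run, over 2 to 20 min and at 10 and 20 min alone. The count called in DeltaPDR1 over 2 to 20 min went from 3 to 1 with arrays scaled to one spread, and to 0 with the DeltaPDR1 arrays alone, without the time block (no replicate block), and without the 4 arrays that follow probe order, an alternative chosen after seeing the data; leaving out arrays or times gave 0 to 4. At 10 and 20 min it went from 3 to 1 with scaled arrays and from 0 to 4 when arrays were left out. No estimate for HXT2, HXT5, HXT6 or HXT7 in DeltaPDR1 changed sign under any alternative. The 5 genes with a WT high point at 4 and 10 min became 2 with the probe trend removed, also added after seeing the data.

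Over all features, calls in DeltaPDR1 went from 238 to 132 scaled, 37 with its own arrays, 130 without the block, 71 without the probe-order arrays and 21 to 239 with arrays left out. At 10 and 20 min they went from 160 to 106 scaled and 56 to 201. DeltaYAP1 minus WT went from 6 to 2 with robust shrinkage, 0 with the arrays of both strains alone or no block, 1 with 30 s included, 52 without the probe-order arrays and 0 to 27, and at 10 and 20 min from 64 to 38 scaled and 21 to 82. DeltaPDR1 minus WT went from 0 to 14 without the probe-order arrays, and at 10 and 20 min from 12 to 4 scaled, 5 with complete values and 2 to 53. The cause was not tested. With medians subtracted, arrays scaled or the 30 s array subtracted, the HXT2 mean was 0.49, 0.47 and 0.23 in WT and 0.57, 0.68 and 0.47 in DeltaYAP1.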
